A study of Mus musculus with 9 samples.

Results

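Accessible chromatin at 49 imprinted genes was examined in mouse mesenchymal progenitor cells (MPCs) with and without Atrx. A merged region was a stretch covered by overlapping or touching peaks of any of the 9 ATAC-seq peak lists, and it was kept where it fell in the body of a listed gene or in the 10 kb to either side (GENCODE M21 annotation, mm10). Of 135835 merged regions, 248 met this rule. They belonged to 44 of the 49 genes and were grouped into 18 imprinted domains. No region fell at Meg3, Dio3, Calcr, Zim1 or Snrpn. In 190 of the 248 regions a peak was present in at least 2 of the 3 libraries of some line, against 97338 of all regions, and 79 carried a peak in all 9 libraries, against 47431 of all regions.

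An imprinted gene is transcribed mainly from the copy inherited from one parent. The choice is set by DNA methylation placed on one parental allele in the germ line at an imprinting control region, and it acts on clusters of genes, often through a long noncoding RNA that silences its neighbours in cis or through an insulator bound by CTCF. ATRX is a chromatin remodeller that works with the histone chaperone DAXX in heterochromatin, and in brain it is known to occupy methylated alleles of imprinting control regions. Peak lists do not separate the parental alleles, so each value below describes both alleles together.

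The cells were C3H/10T1/2, an established line of mouse mesenchymal progenitor cells. The wild-type line (WT) had received the Cas9 vector without a guide RNA. Atrx had been knocked out with CRISPR-Cas9 in 2 lines, B10 and G7, each of which was a single clone, and 3 libraries were made from each line. Effects of a clone and of the Atrx knockout cannot be told apart within 1 line, and nothing in the labels says that the 3 libraries of a line came from separate cultures, so p-values measure only the spread between these libraries. Each library held 76385 to 88535 peaks on chromosomes 1 to 19, X and Y, covering 46.7 to 50.1 Mb. Read depth was not analysed here. The Atrx start site carried a peak of rank 80.8 to 86.0 in all 9 libraries, which does not check the knockout, since a guide RNA leaves a promoter in place. Start sites of 8 of 8 mesenchymal marker genes, among them Pdgfra, Col1a1 and Twist1, carried a peak in all 9 libraries. Of 4 epithelial and 4 blood marker genes none did, and 3 of each had no peak in any library.

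Strength is given on 3 scales. The fold enrichment is the peak caller's linear value over background. The rank is the percentile of the peak's −log10 q within its own library, from 0 for the weakest to 100 for the strongest, and where a region held several peaks the strongest was used. The log2 difference is that between a knockout line and WT in quantile-normalised fold enrichment, with its standard error (SE) and an adjusted p from limma. That fit had no term for the replicate number, except where a replicate block is named. Gained means that at least 2 of a clone's 3 libraries, but none from WT, carried the peak. Lost means the same with the clone and WT exchanged.

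The sequences that the results turn on are shown first. They are 200 bases at or near the strongest summit, clear of annotated untranslated regions, read from RefSeq's GRCm38.p6 (mm10) on the plus strand. Capitals mark matches on either strand to TGCCGC (the motif read by the imprint keeper ZFP57), GGNGGCAG (a CTCF core as in the H19 control region), AGGGGGCGC (another CTCF core) or ATGGCGGC (YY1). The first of these can lie inside the second read on the other strand. The starts of Nespas, Kcnq1ot1, Airn, Plagl1 and Peg10 and the Gnas exon 1A start are each known as methylated on the maternal allele, and the H19 upstream region on the paternal allele.
Nespas start, chr2:174295406-174295605: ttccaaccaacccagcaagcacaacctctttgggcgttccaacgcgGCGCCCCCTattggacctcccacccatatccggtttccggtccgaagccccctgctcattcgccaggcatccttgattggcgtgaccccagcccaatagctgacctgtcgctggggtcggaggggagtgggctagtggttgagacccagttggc
Gnas exon 1A start, chr2:174327390-174327589: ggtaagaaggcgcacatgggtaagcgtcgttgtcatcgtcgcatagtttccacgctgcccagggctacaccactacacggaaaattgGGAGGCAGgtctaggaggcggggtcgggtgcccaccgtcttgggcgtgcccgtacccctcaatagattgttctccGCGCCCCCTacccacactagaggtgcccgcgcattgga
Plagl1 start, chr10:13090588-13090787: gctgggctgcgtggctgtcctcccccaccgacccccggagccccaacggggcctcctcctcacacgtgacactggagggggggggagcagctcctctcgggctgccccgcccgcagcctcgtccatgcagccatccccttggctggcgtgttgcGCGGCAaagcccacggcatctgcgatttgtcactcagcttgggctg
Grb10 start, chr11:12037402-12037601: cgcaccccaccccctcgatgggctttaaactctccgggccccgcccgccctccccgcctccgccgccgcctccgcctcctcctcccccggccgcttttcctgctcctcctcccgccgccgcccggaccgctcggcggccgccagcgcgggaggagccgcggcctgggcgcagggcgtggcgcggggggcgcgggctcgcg
Peg10 and Sgce start, chr6:4746889-4747088: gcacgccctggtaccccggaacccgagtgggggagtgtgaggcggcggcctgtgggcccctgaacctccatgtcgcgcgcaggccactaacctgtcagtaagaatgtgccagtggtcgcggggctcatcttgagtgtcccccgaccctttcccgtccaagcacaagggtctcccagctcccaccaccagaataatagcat
H19 upstream region, chr7:142581744-142581943: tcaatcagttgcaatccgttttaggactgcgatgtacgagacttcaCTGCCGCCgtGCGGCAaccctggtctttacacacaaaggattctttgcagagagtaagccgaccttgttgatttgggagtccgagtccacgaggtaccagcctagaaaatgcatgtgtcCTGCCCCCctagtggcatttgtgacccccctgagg
Kcnq1ot1 start, chr7:143296565-143296764: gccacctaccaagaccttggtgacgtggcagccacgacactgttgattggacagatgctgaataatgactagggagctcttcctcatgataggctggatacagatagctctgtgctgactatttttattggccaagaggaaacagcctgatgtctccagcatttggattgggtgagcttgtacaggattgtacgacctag
Airn start, chr17:12741201-12741400: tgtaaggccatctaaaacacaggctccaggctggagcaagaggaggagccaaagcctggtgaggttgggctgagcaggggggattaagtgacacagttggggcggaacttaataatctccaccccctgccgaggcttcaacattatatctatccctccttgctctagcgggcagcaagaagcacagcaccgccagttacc

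In windows of 301 bases around the summit, TGCCGC was found in 18 of the 248 imprinted regions (7.26%) and in 5.08% of all regions. At start sites of listed genes it was found in 9 of 34 windows (26.5%), and in 16.8% of all 19494 regions at a start site. GGNGGCAG was found in 40 of the 248 (16.1%) against 11.7% of all regions, AGGGGGCGC in 4 (1.61%) against 0.982%, and ATGGCGGC in 1 (0.403%) against 0.747%. At start sites of listed genes GGNGGCAG was found in 14.7% of windows, against 16.0% of all regions at a start site. There AGGGGGCGC stood at 2.94% against 2.08%, and ATGGCGGC at 0% against 3.84%. These are descriptions of letters, with no test. Of the lines above, the H19 upstream window held TGCCGC on both strands and more than 1 match to GGNGGCAG, and the Nespas and Gnas exon 1A windows each held AGGGGGCGC. The whole Plagl1 region held TGCCGC 6 times.

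Most listed genes had closed start sites in these cells. A region within 500 bp of a transcript start of the gene was present in all 9 libraries for 17 of 49 genes (34.7%), in some libraries for 5 and in none for 27 (55.1%). Among all 21911 protein-coding genes a start-site peak stood in all 9 libraries for 53.3% and in none for 38.1%. Gnas and Inpp5f set aside, of 24 genes known for maternal expression 10 had a start-site peak in every library and 12 in none, and of 23 known for paternal expression 5 had one in every library and 15 in none. The start sites with no peak in any library included the fetal growth factor Igf2 and the noncoding RNA H19, the cell cycle inhibitor Cdkn1c, the hydrolase family gene Mest, and Dlk1, a transmembrane inhibitor of adipogenesis. They also included all 6 listed genes of the Dlk1/Meg3 domain.

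The highest start-site ranks in WT belonged to 4 genes. Tssc4, in the Kcnq1ot1 domain, stood at 98.8, 98.6 and 98.8, the nucleosome assembly gene Nap1l4 at 98.0, 98.1 and 97.0, the inositol phosphatase Inpp5f at 98.4, 96.5 and 97.7, and the ubiquitin ligase Ube3a at 97.0, 95.9 and 95.1. At Inpp5f, Ube3a, Copg2 (a coatomer subunit), Blcap and Impact (a regulator of translation) no log2 difference passed the test in either clone. Mkrn3, a makorin ring finger gene, was the 1 gene of the Snrpn domain other than Ube3a with a start-site peak, at 58.4, 38.1 and 34.2 in WT, 42.3, 39.0 and 43.9 in B10 and 51.4, 39.5 and 36.1 in G7, and the 3 lines overlapped.

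**Figure D1:**
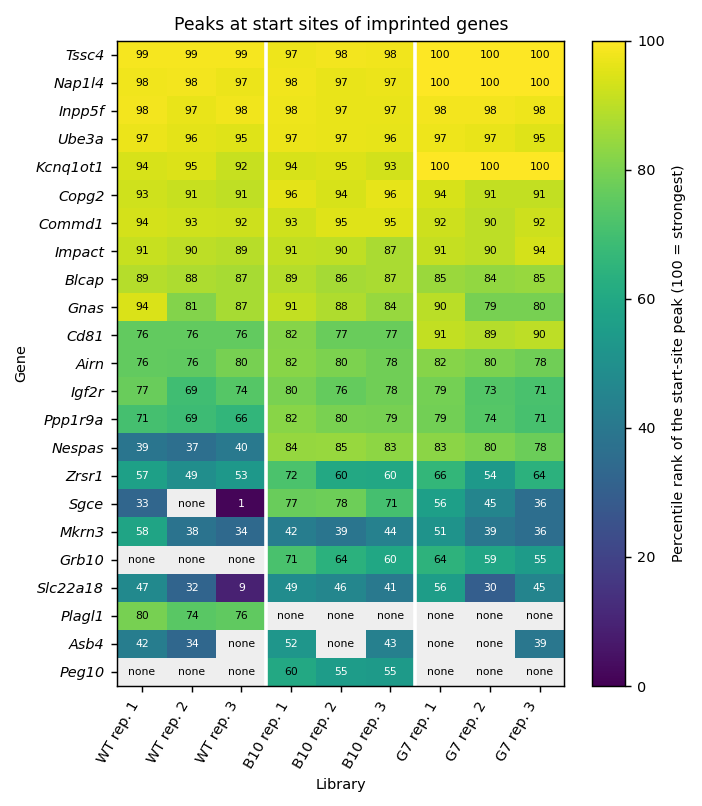
Percentile rank (color, 0 to 100, with the value in each cell) of the strongest peak within 500 bp of a transcript start, for the 22 listed genes with such a peak in some library and for the noncoding RNA Nespas (rows), in each of the 9 libraries (columns); grey cells had no peak. Plagl1 had a peak in the 3 WT libraries alone, Grb10 in the 6 knockout libraries alone and Peg10 in the 3 B10 libraries alone.

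Among 9 imprinted noncoding RNAs, 3 had an open start site, namely Kcnq1ot1, Airn and Nespas, each in all 9 libraries. H19, Meg3, Rian, Mirg, Snhg14 and Igf2os had none in any library. Nespas runs antisense through the Nesp promoter at the complex Gnas locus, and its start on chromosome 2 (174294483-174296038, within the Gnas gene) was stronger in both clones. Its fold enrichment was 8.14, 8.44 and 9.23 in WT, 15.6, 16.3 and 14.9 in B10 and 15.6, 13.7 and 12.6 in G7. Its rank was 38.8, 36.6 and 40.4 in WT, 84.3, 84.6 and 82.9 in B10 and 82.6, 80.1 and 77.6 in G7. Every knockout library was above every WT library. On the log2 scale the start differed from WT by 0.87 ± 0.09 (SE, n = 3 against 3, limma adjusted p = 0.0014) in B10 and 0.78 ± 0.09 (adjusted p = 0.0038) in G7.

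The start of exon 1A of Gnas, which encodes the stimulatory G protein alpha subunit, moved the same way. This region (chromosome 2, 174327130-174328027) had fold enrichments of 4.41, 4.06 and 3.74 in WT, 6.23, 7.12 and 6.39 in B10 and 7.64, 7.04 and 6.97 in G7. Ranks were 62.1, 51.4 and 46.4 in WT, 80.1, 79.4 and 76.8 in B10 and 83.8, 79.5 and 79.6 in G7, again with no overlap. Its log2 difference was 0.67 ± 0.13 (limma adjusted p = 0.016) in B10 and 0.88 ± 0.13 (adjusted p = 0.0083) in G7. The B10 call was lost when WT replicate 2, WT replicate 3 or B10 replicate 2 was left out, with log2 differences of 0.66, 0.61 and 0.64.

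The next region holds the main Gnas promoter (chromosome 2, 174329474-174331154) and did not pass the test. It ranked 83.5, 74.3 and 76.0 in WT, 84.2, 74.8 and 74.8 in B10 and 77.4, 67.5 and 67.8 in G7, with a log2 difference of -0.21 ± 0.16 (limma adjusted p = 0.48) in B10 and -0.37 ± 0.16 (adjusted p = 0.27) in G7. The 20 other regions within 1 Mb of Gnas with a peak in all 9 libraries had a median rank difference of -0.77 in B10 and -3.63 in G7. Of 11 Gnas regions, none was gained in either clone, and 1 intronic region was lost in B10.

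Plagl1, a zinc finger gene that slows cell growth, had the 1 start site of a listed gene lost in both clones. This region (chromosome 10, 13090455-13091437) held a peak at rank 79.5, 74.3 and 75.7 in WT, with fold enrichments of 16.6, 14.9 and 15.6. No peak was called in any of the 6 knockout libraries. These WT ranks were the highest of the 10 regions lost in both clones. Within 1 Mb of Plagl1, 10 of 97 other consensus regions were lost in B10 (10.3%) and 4 were lost in G7 (4.12%).

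Grb10, an adaptor that dampens insulin receptor signalling, showed the reverse. At an annotated start downstream of its 5′-most one (chromosome 11, 12036483-12038014) no WT library had a peak. There B10 had ranks of 71.2, 63.9 and 59.5 and G7 of 64.5, 59 and 54.8. The fold enrichments were 11.3, 10.4 and 9.5 in B10 and 9.51, 8.26 and 8.06 in G7. Its ranks in both clones were the highest of the 5 regions gained in both. Of the 57 other consensus regions within 1 Mb, 5 were gained in B10 (8.77%) and none in G7.

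**Figure D2:**
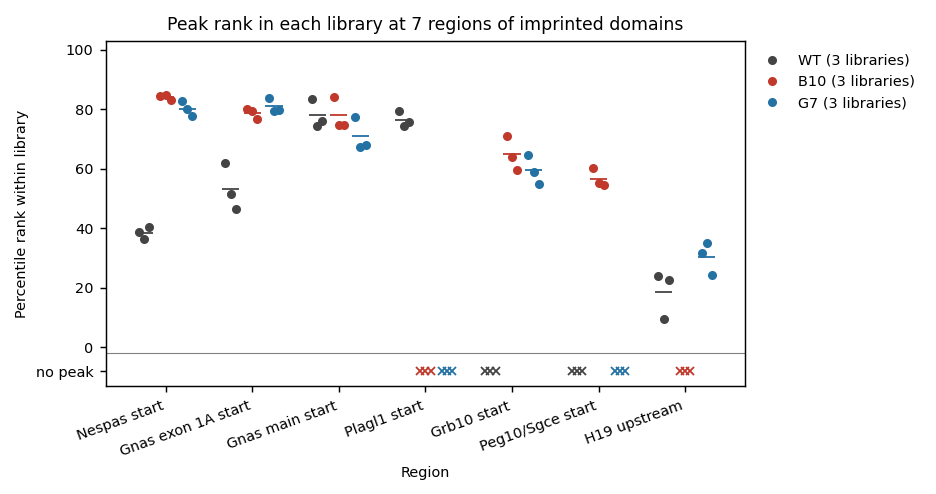
Percentile rank (y axis, 0 to 100) of 7 regions in each library, with WT in grey, B10 in red and G7 in blue; points are libraries, short lines are means of 3 libraries and crosses in the lower band are libraries with no peak. At the Nespas start WT lay at 36.6 to 40.4 and the knockout libraries at 77.6 to 84.6, while at the main Gnas start the lines overlapped.

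Further inside the Grb10 domain, 3 regions of the body and flank passed as stronger in B10 and 2 of them in G7. The domain's 10 fitted regions had a median rank difference of -0.40 in B10 and 1.96 in G7, with 5 above WT in each clone. The lowest rank differences in the domain were -30.2 in B10 and -17.3 in G7, each in a Ddc intron. Of its 27 consensus regions, 5 were gained and 1 lost in B10, and 1 was gained and 3 were lost in G7. An intronic region of Ddc, which encodes dopa decarboxylase (chromosome 11, 11851111-11852506), had fold enrichments of 3.34, 2.90 and 3.17 in WT, 10.1, 8.97 and 8.63 in B10 and 6.70, 5.18 and 5.20 in G7. Its log2 difference was 1.53 ± 0.16 (limma adjusted p = 0.0014) in B10, the largest among the imprinted regions, and 0.88 ± 0.16 (adjusted p = 0.020) in G7. Every B10 library was above every G7 library, and every G7 library above every WT library, while the difference between the clones (0.65 ± 0.16, adjusted p = 0.080) did not pass limma's test. The G7 call was lost without WT replicate 2 or 3 or without G7 replicate 1 or 3 (0.74 to 0.96), and with the logit of the percentile rank (2.67 on that scale).

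A Grb10 intron (chromosome 11, 11952684-11954584) ranked 52.5, 30.7 and 25.3 in WT, 79.2, 69.5 and 57.6 in B10 and 73.9, 59 and 50.1 in G7. G7 replicate 3 lay below WT replicate 1, so the ranks of G7 and WT overlapped. It differed from WT by a log2 value of 0.83 ± 0.17 (limma adjusted p = 0.022) in B10 and 0.76 ± 0.17 (adjusted p = 0.048) in G7. The B10 call was lost without WT replicate 2, WT replicate 3, B10 replicate 1 or B10 replicate 2 (log2 differences of 0.73 to 0.83), and the G7 call without any of 8 libraries, WT replicate 1 being the exception (0.62 to 0.88), and also with the logit of the percentile rank (1.54 on that scale).

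Downstream of Grb10, an intergenic region (chromosome 11, 11928402-11929238) passed in B10 alone, at 0.76 ± 0.19 (limma adjusted p = 0.043), with 0.28 ± 0.19 (adjusted p = 0.50) in G7. Its ranks were 46.2, 36.6 and 22.7 in WT, 82.3, 76.9 and 68.6 in B10 and 68.4, 56.5 and 47.7 in G7. The B10 call was lost without any 1 of 7 libraries, WT replicate 1 and G7 replicate 1 being the exceptions (0.60 to 0.86). Between the clones, the difference of 0.48 ± 0.19 did not pass (limma adjusted p = 0.29). The 26 other regions within 1 Mb open in all libraries had a median rank difference of 1.92 in B10 and -6.85 in G7.

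Near the proximal end of chromosome 6, the regions of the Peg10 domain moved unevenly, with more gains in B10 than in G7. Peg10, a retrotransposon-derived gene, and Sgce, which encodes sarcoglycan epsilon, share a bidirectional start (chromosome 6, 4746649-4747360), and a peak stood there in the 3 B10 libraries alone. The ranks were 60.3, 55.2 and 54.6 and the fold enrichments 9.72, 9.51 and 9.23. Neither WT nor G7 had a peak in any library.

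A second start of Sgce (chromosome 6, 4740286-4741172) held ranks of 33.1 and 1.34 in WT replicates 1 and 3, with no peak in replicate 2. There B10 stood at 77.2, 77.9 and 70.5 and G7 at 56.4, 45.4 and 36.1. All 6 knockout libraries were above the WT libraries. A Sgce exon (chromosome 6, 4708981-4709550) and a Peg10 intron (chromosome 6, 4749078-4749460) were also gained in B10, the first at ranks of 27.7, 55.6 and 49.4 and the second at 48.9, 56.9 and 50.3. Both were named after their values were seen.

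The start of Ppp1r9a, which encodes neurabin, was stronger in B10 (log2 difference 0.32 ± 0.06, limma adjusted p = 0.014). In G7 the difference was 0.22 ± 0.06 (limma adjusted p = 0.081). It (chromosome 6, 5110309-5111069) ranked 70.6, 68.7 and 65.9 in WT, 82.1, 80.0 and 79.4 in B10 and 78.6, 73.6 and 70.7 in G7. The B10 call was lost without WT replicate 2 (0.31) or B10 replicate 3 (0.30). A Ppp1r9a intron (chromosome 6, 4982652-4983235) had a WT peak in replicate 1 alone, at rank 21.4. It stood at 52.5, 37.3 and 27.5 in B10 and higher in G7, at 78.5, 66.1 and 60.9. An intergenic region past Asb4 (chromosome 6, 5442152-5443815) had a log2 difference of -0.33 ± 0.14 in B10 (limma adjusted p = 0.20). In all, 5 of the 15 consensus regions of the Peg10 domain were gained in B10 and 1 in G7, and none was lost in either clone. Ranks moved widely on this chromosome in B10. The 41 other regions within 1 Mb of the domain that were open in all libraries rose by a median of 5.84 points, all such regions of chromosome 6 rose by 5.68, and 14 of 83 other consensus regions within 1 Mb were gained (16.9%). The part of this shift in the Peg10 values was not tested. On the fold scale the neighbours' median log2 difference was 0.00, and centring on each chromosome left the Ppp1r9a call in place.

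At the H19/Igf2 domain, 3 regions were lost and 1 gained in B10 and none in G7, and no test of the clones against each other covers them. H19 and Igf2 share a control region whose CTCF sites insulate Igf2 on the maternal allele. A pair of peaks lay upstream of H19, centred 2.5 and 3.9 kb from its start. The nearer (chromosome 7, 142580270-142580945) had ranks of 26.4, 28.6 and 18.2 in WT, and 1.56 and 10.1 in G7 replicates 1 and 2. The farther (chromosome 7, 142581710-142582320) had 23.9, 9.66 and 22.7 in WT and 31.8, 35.0 and 24.2 in G7. Neither held a peak in any B10 library, and both were called lost in B10. These peaks were low in WT, and were chosen after their values were seen. For the farther one the G7 minus WT difference in mean rank was 11.6 (two-sided exact permutation test, p = 0.10, the smallest that 3 against 3 allows).

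Of 3 regions in the flanks of Igf2, the one past its 3′ end (chromosome 7, 142646700-142646983) was gained in B10, at ranks of 13.4, 14.6 and 9.0, with 6.10 in G7 replicate 1. Of the pair upstream of Igf2, one (chromosome 7, 142672111-142672411) was lost in B10, from 31.9 and 24.8 in WT replicates 1 and 3, and had 27.6 and 28.0 in G7 replicates 1 and 2. The other (chromosome 7, 142675427-142676271) was open in all 9 libraries, with log2 differences of -0.03 ± 0.12 in B10 and 0.04 ± 0.12 in G7 that did not pass limma's test (adjusted p = 0.90 in both). In the 1 Mb to either side, 11 of 115 other consensus regions were lost in B10 (9.57%) and 3 in G7 (2.61%), while 25 were gained in G7 (21.7%).

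The Kcnq1ot1 domain lies next to it. Kcnq1ot1 is the noncoding RNA that silences its neighbours, among them Cdkn1c and Phlda2, on the paternal allele. Its start (chromosome 7, 143295661-143297093, in an intron of the potassium channel gene Kcnq1) ranked 94.0, 94.6 and 91.6 in WT, 94.1, 94.9 and 93.1 in B10 and 99.8, 99.7 and 99.7 in G7. On the fold scale the lines overlapped, at 16.0, 16.8 and 15.3 in WT, 16.7, 18.8 and 16.4 in B10 and 16.6, 15.5 and 15.0 in G7. Its log2 difference was 0.10 ± 0.06 (limma adjusted p = 0.35) in B10 and 0.05 ± 0.06 (adjusted p = 0.73) in G7.

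Higher ranks in G7 were shared along distal chromosome 7. Of the 67 regions open in all libraries up to 2000 kb before the Kcnq1ot1 start and outside the listed genes, 63 ranked higher in G7 than in WT, with a median difference of 11.4 points, and after it 80 of 85 did, with a median of 13.5. From 5000 to 2000 kb before the start, 51 of 89 did, with a median of 0.783. In B10 the medians were 0.473, -0.923 and 0.0667. In log2 fold enrichment the G7 medians of the first 2 groups were 0.04 and 0.08. The group from 5000 to 2000 kb was mixed in G7. Each of its regions from -2491 to -2031 kb (minus meaning before the start) ranked higher than in WT. Of those from -4468 to -3159 kb, more ranked lower than higher. The higher ranks therefore reached past the 2000 kb edge. At the imprinted genes, Cd81 (a tetraspanin) rose from 76.2, 76.0 and 75.9 in WT to 90.8, 88.9 and 90.0 in G7, and its log2 difference of 0.21 ± 0.10 did not pass (limma adjusted p = 0.33).

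Of the 13 imprinted regions gained in G7, 8 lay in the Kcnq1ot1 domain, 6 of them inside the Kcnq1 gene. In that domain, 8 of 32 consensus regions were gained in G7 and 1 in B10. Within 1 Mb and outside the listed genes, 26 of 140 consensus regions were gained in G7 (18.6%) and 8 in B10 (5.71%). One of the 8, an exon of the transporter gene Slc22a18 (chromosome 7, 143480377-143481121), was gained in both clones, with ranks of 17.3 and 6.23 in B10 replicates 2 and 3 and 48.6, 49.5 and 45.7 in G7. The part of the shift along the segment in these gains was not tested.

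**Figure D3:**
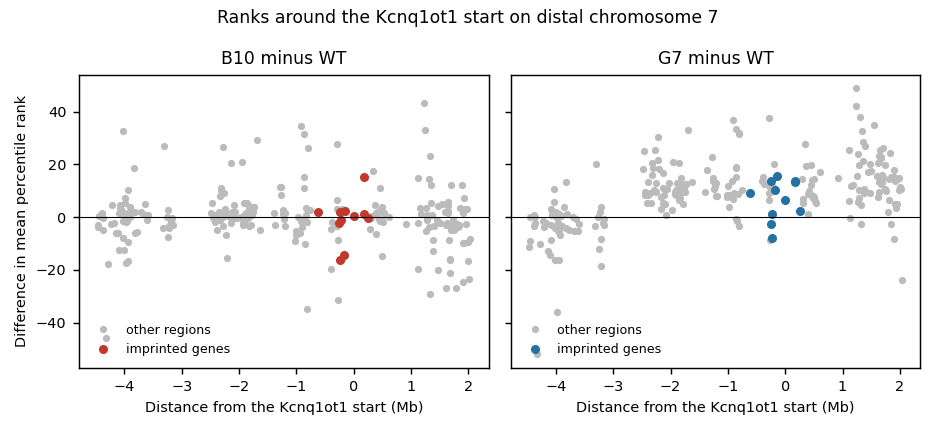
Difference in mean percentile rank from WT (y axis) against distance from the Kcnq1ot1 start in Mb (x axis) for regions with a peak in all 9 libraries, in B10 (left) and G7 (right); colored points are regions of imprinted genes and grey points other regions. In G7, 63 of 67 other regions within 2000 kb before the start and 80 of 85 after it lay above 0. In B10 the medians were 0.473 and -0.923.

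The Igf2r domain was the largest, with 53 regions, and no region of it passed the strength test without the replicate block. Airn is transcribed antisense from an intron of Igf2r, the receptor that clears Igf2, and silences it on the paternal allele. Its start (chromosome 17, 12740980-12741821) ranked 75.9, 75.6 and 79.7 in WT, 82.4, 80.1 and 78.2 in B10 and 81.9, 80.3 and 78.2 in G7. Its log2 difference was -0.01 ± 0.13 (limma adjusted p = 0.98) in B10 and 0.01 ± 0.13 (adjusted p = 0.99) in G7. The Igf2r promoter (chromosome 17, 12768679-12770075) gave log2 differences of 0.11 ± 0.09 (limma adjusted p = 0.55) and -0.02 ± 0.09 (adjusted p = 0.96).

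A shorter Igf2r transcript starts near another region (chromosome 17, 12750652-12751826), where ranks were 58.6, 61.8 and 52.9 in WT, 54.3, 48.2 and 44.9 in B10 and 36.7, 47.5 and 33.1 in G7. There the log2 difference was -0.62 ± 0.15 in G7, with limma adjusted p = 0.054, and 0.026 with the replicate block. Deeper in Airn, an intronic region (chromosome 17, 12781100-12781620) was lost in both clones from ranks of 62.1, 55.8 and 51.9 in WT. An intron of the organic cation transporter gene Slc22a3 (chromosome 17, 12429682-12430118) was lost in both clones from low ranks of 8.93, 5.22 and 3.28.

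In the Dlk1/Meg3 domain, 8 regions were found and no listed gene had a start-site peak. A region within Rtl1 (chromosome 12, 109595513-109596339), at the starts of the microRNAs Mir136 and Mir3071, ranked 58.9, 30.3 and 51.6 in WT, with a peak in 1 library of each clone, at 6.23 in B10 replicate 3 and 16.6 in G7 replicate 1, and was chosen after its values were seen. The noncoding RNAs Rian and Mirg host small nucleolar RNAs and microRNAs. Each had a region overlapping an exon with a peak in all 9 libraries. The strongest summit of the Mirg region (109749933) lay past the annotated end of the gene (109749460). The Rian peak stood at 73.4, 81.0 and 78.4 in WT, 60.1, 71.1 and 66.5 in B10 and 43.8, 76.8 and 69.9 in G7. The Mirg peak stood at 94.0, 92.0 and 92.8 in WT, 83.1, 85.2 and 83.0 in B10 and 86.8, 90.5 and 86.6 in G7. Its ranks in both clones were below those of WT, and its log2 differences of -0.16 ± 0.07 (limma adjusted p = 0.20) and -0.07 ± 0.07 (adjusted p = 0.65) did not pass. A region upstream of Dlk1 (chromosome 12, 109450167-109450495) was lost in both clones from ranks of 6.88 and 16.5 in WT replicates 1 and 2.

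The Snrpn domain had 5 regions. A region in an intron of the noncoding gene Gm32061, 5.5 kb past the Magel2 start (chromosome 7, 62382192-62382848), was the 1 imprinted region that passed as weaker. Magel2 encodes a MAGE family protein. The fold enrichment of the region was 15.6, 13.4 and 13.4 in WT, 15.3, 13.5 and 13.3 in B10 and 9.0, 9.64 and 8.20 in G7. It differed from WT by -0.57 ± 0.11 (log2, limma adjusted p = 0.026) in G7 and by 0.00 ± 0.11 (adjusted p = 0.99) in B10. The call was lost without WT replicate 2 or 3 or G7 replicate 1 or 3 (log2 differences of -0.62 to -0.51), with replicate 1 left out of every line (-0.48), and with the logit of the percentile rank (-0.92 on that scale). An exonic region of Ndn, which encodes necdin (chromosome 7, 62348131-62348650), had a peak in the 3 G7 libraries alone, at ranks of 32.3, 28.7 and 26.4.

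Single regions moved at 3 further domains. At Rasgrf1, a Ras exchange factor, an exonic region (chromosome 9, 89924563-89925410) ranked 63.2, 16.5 and 18.2 in WT, 79.0, 69.0 and 68.7 in B10 and 73.3, 38.4 and 50.1 in G7. The log2 difference was 1.03 ± 0.27 (limma adjusted p = 0.049) in B10 and 0.69 ± 0.27 (adjusted p = 0.22) in G7, and with the replicate block the G7 value passed as well (adjusted p = 0.042). The B10 call was lost without WT replicate 2 or 3, without any of the B10 replicates and without G7 replicate 3 (log2 differences of 0.85 to 1.08), and when each list was cut to the length of the shortest (1.02). A region past the end of the gene (chromosome 9, 90035897-90037114) was gained in both clones, at 7.01, 42.3 and 37.4 in B10 and 6.10, 24.1 and 11.6 in G7, while an intron (chromosome 9, 89928483-89929000) was lost in both from 31.4 and 1.38 in WT replicates 1 and 2.

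The other regions gained in both clones were introns of Asb4, an ankyrin repeat and SOCS box gene, and of Impact. The Asb4 intron (chromosome 6, 5413372-5413837) stood at 24.0, 28.6 and 47.0 in B10 and 17.4, 27.6 and 37.1 in G7. The Impact intron (chromosome 18, 12979831-12980784) had 2 peaks in each clone, at 21.4 and 3.42 in B10 and 15.2 and 9.63 in G7. The regions lost in both clones and not yet described were single introns of Copg2, Usp29, Ddc and of the stretch shared by the zinc finger gene Peg3 and the peptidase gene Usp29, and an intergenic region near Kcnq1. None of these had a WT rank above 41.8. Inpp5f, Nap1l5, Slc38a4 (an amino acid transporter), Nnat with Blcap, and Zrsr1 with Commd1 had no region gained, lost or, without the replicate block, called in strength in either clone.

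Counted over all domains, the imprinted regions were gained and lost about as often as regions at large. In B10, 19 of 190 consensus regions were gained (10.0%) against 10.4% of all, and 18 were lost (9.47%) against 7.58%. In G7, 13 were gained (6.84%) against 5.69%, and 12 were lost (6.32%) against 7.42%. In both clones, 5 were gained (2.63%) against 2.97% and 10 were lost (5.26%) against 4.36%. When peaks on the side with the peak had to reach a −log10 q of 10, 2 stayed gained and 5 stayed lost in both. Leaving out WT replicate 1 gave 15 gains and 7 losses shared by the clones, and leaving out WT replicate 2 gave 6 and 4. Without B10 replicate 2, 3 were gained in both.

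In strength, 7 of the 79 fitted regions were stronger in B10 (8.86%) against 3.21% of all, and none was weaker, against 3.24%. With the replicate number as a block, 8 were stronger in B10 (10.1%) against 7.72% of all regions, and 4 were weaker (5.06%) against 7.85%. In G7, 4 were stronger (5.06%) against 1.49% and 1 was weaker (1.27%) against 1.36%. With the block, 5 were stronger in G7 (6.33%) against 4.20% of all, and 5 were weaker (6.33%) against 4.16%. Without the block the same 4 regions, at Nespas, Gnas exon 1A, Ddc and Grb10, were stronger in both clones (5.06% against 1.01%). None was weaker in both without it, against 0.561%. With the block, 5 were stronger in both (6.33% against 2.83%) and 3 were weaker in both (3.797% against 1.93%). The clones share the WT libraries, so their calls are not independent.

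The 3 regions weaker in both clones with the block are named here after their values were seen. An exon of Cd81 (chromosome 7, 143062435-143063275) had fold enrichments of 5.46, 12.8 and 12.4 in WT, 3.34, 7.67 and 7.77 in B10 and 3.21, 7.12 and 8.71 in G7. Replicate 1 was the lowest in every line, and each knockout library was below the WT library of its number. Its log2 difference was -0.70 ± 0.45 in B10 and -0.62 ± 0.45 in G7 (limma adjusted p = 0.40 and 0.54, and 0.0065 and 0.016 with the block). An intron of Commd1 (chromosome 11, 22965186-22965901) gave -0.45 and -0.46 (limma adjusted p = 0.026 and 0.036 with the block), and an exon of Igf2r (chromosome 17, 12688479-12689501) gave -0.49 and -0.76 (0.033 and 0.012 with the block). The median log2 difference of the 79 regions was -0.01 in B10 and -0.02 in G7, and that of all 47431 regions was 0.01 in both. No test was made of the list as a whole.

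**Figure D4:**
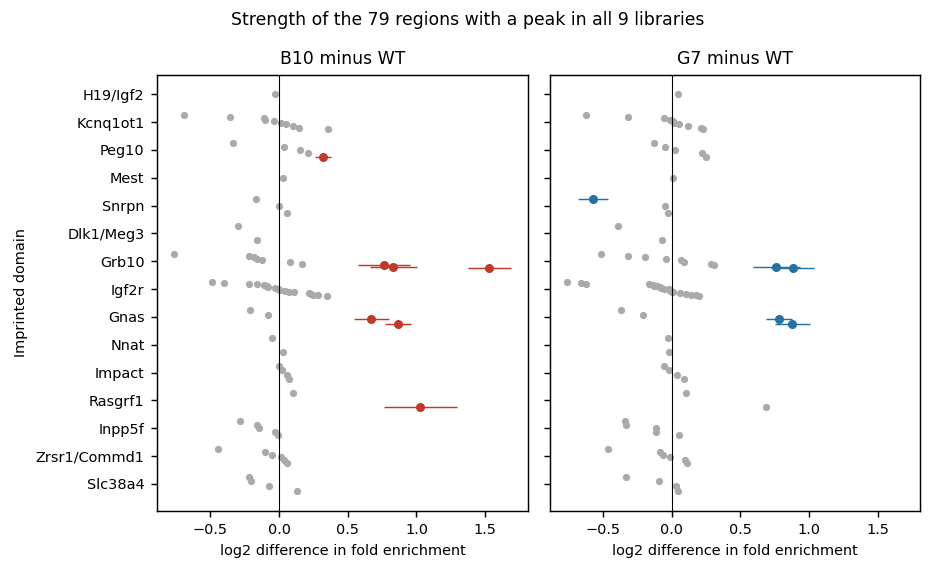
Log2 difference in quantile-normalised fold enrichment from WT (x axis) for the 79 imprinted regions with a peak in all 9 libraries, by imprinted domain (y axis), in B10 (left) and G7 (right). Each point is a region, colored points passed limma's test at an adjusted p under 0.05 and carry their SE, and those passing sit at Gnas and Grb10 in both clones, with Peg10 and Rasgrf1 in B10 and Snrpn, below 0, in G7.

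Genes outside the list were counted in the same way. Of 16 other imprinted genes, 7 had an open start site in all 9 libraries and 7 in none. Among their 12 start-site regions, 3 were lost in B10 and 2 in G7, against 7.58% and 7.42% of all consensus regions. Of 8 fitted regions 1 was stronger in each clone, against 3.21% and 1.49% of all fitted regions. Counts this small were not compared with those shares. The stronger region was the start of Mcts2, a retrogene inside H13 (chromosome 2, 152686561-152687394), at 81.2, 75.1 and 76.2 in WT, 90.9, 88.5 and 88.8 in B10 and 93.0, 92.8 and 93.0 in G7. Its log2 difference was 0.32 ± 0.07 (limma adjusted p = 0.028) in B10 and 0.55 ± 0.07 (adjusted p = 0.0047) in G7. Lost in both clones were the start of Sfmbt2, a Polycomb-related gene (chromosome 2, 10372371-10373059), from 48.3, 28.6 and 41.8 in WT, and a start of Begain (chromosome 12, 109067418-109068607), from 60.8, 60.1 and 67.4.

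Of 18 genes that maintain imprints, 15 had an open start site in all 9 libraries, among them Trim28, Dnmt1, Ctcf and Daxx, the partner of ATRX. Dppa3 and Ctcfl had none. No fitted region of the 17 was stronger or weaker in either clone, and the 1 lost region, in both clones, was a start of Dnmt3l (chromosome 10, 78054691-78054934), a germ-line cofactor of DNA methylation, at 18.7 and 28.8 in WT replicates 2 and 3. For the Daxx start the log2 difference was 0.01 ± 0.07 (limma adjusted p = 0.93) in B10 and 0.01 ± 0.07 (adjusted p = 0.96) in G7.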

How the data were processed

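Omni-ATAC-seq had been done on 9 libraries, 3 each of WT, B10 and G7. Per the study's methods, the authors checked read quality (Rfastp), aligned read pairs to mm10 (Rsubread) and ran MACS2 on each replicate alone in its paired-end mode, which takes whole fragments. The MACS2 version is not given in the sources used here, and no shift of reads to the cut site is described there. Peak names mention an input whose use is not stated. The deposited peak lists give a score (not used), a fold enrichment as a linear ratio over background, −log10 p and −log10 q, and a summit. The lowest −log10 q of a list was 1.30 to 1.31, so a weaker site reads as no peak. No read counts were in the files used, so depth is unknown and no counting interval is given.

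Peaks of the 9 lists that overlapped or touched were merged. Consensus regions had a peak in at least 2 of 3 libraries of some line, following the study's methods. Presence calls used consensus regions. Strength was tested with limma 3.58.1 (R 4.3.3, trend) on quantile-normalised log2 fold enrichment over the 47431 regions with a peak in all 9 libraries, which leaves out regions absent from any library. Contrasts were each clone minus WT, and p-values were Benjamini-Hochberg adjusted over all regions with a threshold of 0.05. On simulated data for B10 minus WT over 47431 regions, a true log2 difference of 1 was called in 76% of cases and one of 0.5 in 22%. One of -1 was called in 58% and one of -0.5 in 10%. Each size was set in 50 regions of its own, so gains and losses were set in different regions. These shares were not tested against each other. The simulated noise was independent between libraries, without the shared deviations described below, so the shares need not hold for the real data. Start sites were regions within 500 bp of a GENCODE M21 transcript start. Peg3os is not in that annotation.

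Samples with the same replicate number deviated together. In all 9 such pairs the correlation of deviations from the line means was 0.230 to 0.587, and it was -0.478 to 0.238 in the other 18, so the numbers were taken to pair the libraries. The main fit held no such block, so its SEs and adjusted p-values leave this pairing out. With the block, the stronger share of all regions in B10 rose from 3.21% to 7.72%, and the weaker share from 3.24% to 7.85%. A region that did not pass the main fit can therefore pass with the block. The labels do not say what a number marks.

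The regions named were those at start sites of listed genes and noncoding RNAs, those called in both clones (presence or strength) and the 10 largest log2 differences per clone among those past the threshold. Any other region in the text, the neighbour windows of 1 Mb, the bins on chromosome 7 and the cell type markers were chosen after values were seen. The members, gene lists and motifs were chosen with earlier results of these data known. Alternatives were an equal number of peaks per library, stricter peaks, a minimum cover of 25% of the region, replicate 1 left out of every line, each library left out, the replicate block, other scalings, ranks in place of fold enrichment, and regions with a peak in at least 2 libraries of each line.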

Additional observations from a re-analysis of the deposited data

Results flagged for a closer look

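At the region 5.5 kb past the Magel2 start, the clones' differences from WT differed from each other. B10 minus G7 was 0.57 ± 0.11 in log2 fold enrichment (limma, adjusted p = 0.033 over 47431 regions), with 13.3 to 15.3 in the 3 B10 libraries and 8.20 to 9.64 in the 3 G7 libraries. It was the 1 of 79 imprinted regions to pass this test, which 818 of all regions passed (1.73%).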

How the results depend on the processing

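Counts of imprinted regions moved with how a peak was counted as present and with single libraries. With a −log10 q of at least 10 on the side with the peak, 6 regions were gained and 6 lost in B10, 4 gained and 5 lost in G7, and 2 gained and 5 lost in both. With a cover of 25%, 3 were gained in both. With replicate 1 left out of every line, 21 were gained in G7, 10 were gained in both, 4 were weaker in B10 and 3 weaker in G7. When each list was cut to the length of the shortest, 2 were weaker in G7. With the replicate block, 4 were weaker in B10 and 5 in G7. Among the regions named by the rule above, it changed no other call than those given for Rasgrf1 and for the shorter Igf2r transcript. The 3 regions weaker in both clones with the block, at Cd81, Commd1 and Igf2r, were named outside that rule, and their calls changed too. With the logit of the percentile rank in place of fold enrichment, 11 were stronger and 1 weaker in B10, and 8 stronger and 4 weaker in G7 (over all regions 11.02% and 5.55% in B10, and 5.13% and 4.83% in G7). There the Nap1l4 start turned from -0.01 to 3.95 in G7, within the segment of distal chromosome 7 whose ranks rose. Leaving out each library in turn gave 8 to 34 gained and 10 to 22 lost in B10, 10 to 28 gained and 4 to 19 lost in G7, and 3 to 15 gained and 4 to 11 lost in both. The same step gave 3 to 7 stronger and 0 to 1 weaker in B10, and 2 to 5 stronger and 0 to 2 weaker in G7. The most gained came without WT replicate 1 and the fewest lost without WT replicate 2. The cause was not tested, beyond the fewer libraries used. Of the 15 regions called in both clones, 7 to 15 were called again under each presence alternative.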
